A study of Mus musculus with 2 samples.

Results

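miR-192, miR-194 and miR-215 are microRNAs encoded as pairs in a duplicated gene cluster, and their 5p strands were followed here in mouse liver with and without the nuclear receptor HNF4a. The 3 features were taken by their miRBase mature accessions, MIMAT0000517 for miR-192-5p, MIMAT0000224 for miR-194-5p and MIMAT0000904 for miR-215-5p, out of 610 features in the array table. The study set out to find hepatic miRNAs that depend on HNF4a. Liver RNA from floxed Hnf4af/f mice, the control, was compared with that from Hnf4aΔH mice, called liver-null, in which Hnf4a is deleted in the liver. All animals were 45-day-old males on a mixed 129SV and C57BL/6 background, and the strain, age and sex were the same for both groups. The sources used here name neither the Cre line that deletes the floxed allele nor how many animals gave RNA to an array. Each genotype had 1 array, so every value below is a single measurement with no replicate error and no test between the genotypes was possible. The 3 miRNAs were chosen by the difference in intensity between these same arrays, so the values describe them and support nothing further.

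HNF4a is a transcription factor that maintains the gene programme of the hepatocyte. miR-192, miR-194 and miR-215 are known as miRNAs of liver, kidney and intestinal epithelium. In each cluster a miR-194 hairpin lies next to the hairpin of miR-192 or of its close relative miR-215, and the hairpins of a cluster are cut from a shared primary transcript. A miRNA recognises target mRNAs mainly through its seed, bases 2 to 8 counted from its 5′ end. miR-192 and miR-215 are known from human cancer cells as miRNAs that p53 raises and that hold back the cell cycle. miR-192 is also known to repress the E-box repressor Zeb2 in mouse kidney mesangial cells. miR-194 is known as a marker of epithelial cells of the liver that represses N-cadherin in human liver cancer cells.

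All 3 accessions were matched by miRNA name to the RefSeq table of GRCm38.p6. The mature sequences are printed with the seed in capitals, to show which of the 3 miRNAs share one.

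miR-192-5p: cUGACCUAugaauugacagcc
miR-215-5p: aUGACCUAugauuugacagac
miR-194-5p: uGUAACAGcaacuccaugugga

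miR-192-5p and miR-215-5p shared 1 seed, and no other of the 1679 mature names in the RefSeq table carried it. The seed of miR-194-5p was found in no other mature name. miR-192-5p and miR-215-5p were identical at 18 of 21 bases (85.7%). From miR-192-5p to miR-215-5p the 3 substitutions were C1A, A12U and C20A, with positions counted from the 5′ end, so all lay outside the seed. miR-194-5p matched either of the others at no more than 7 bases in any ungapped alignment.

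The 4 hairpins are given with the mature 5p strand in capitals, since they show which locus each measured strand can come from. On chromosome 19 the hairpins were Mir194-2 at chr19:6264643-6264728 and Mir192 at chr19:6264844-6264932, and on chromosome 1 they were Mir194-1 at chr1:185313319-185313385 and Mir215 at chr1:185313581-185313692, all on the plus strand.

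Mir194-2: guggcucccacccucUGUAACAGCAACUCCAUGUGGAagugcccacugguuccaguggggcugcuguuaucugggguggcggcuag
Mir192: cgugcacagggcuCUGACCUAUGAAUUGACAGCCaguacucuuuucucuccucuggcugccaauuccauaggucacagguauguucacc
Mir194-1: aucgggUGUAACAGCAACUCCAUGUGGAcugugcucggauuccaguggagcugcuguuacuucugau
Mir215: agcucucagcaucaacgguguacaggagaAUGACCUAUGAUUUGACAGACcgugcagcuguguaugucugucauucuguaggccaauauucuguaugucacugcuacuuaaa

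Mir194-2 and Mir192 were 115 bases apart, and no annotated gene of the RefSeq table held them. The nearest gene to their left was Atg2a, 2338 bases away, and the nearest to their right was the long non-coding RNA gene Gm14963, 3861 bases away. Mir194-1 and Mir215 were 195 bases apart and lay within the bounds of Iars2, a protein-coding gene on the opposite strand. miR-194-5p had the same sequence in both clusters (2 hairpins), so its single array feature cannot tell the chromosome 19 copy from the chromosome 1 copy. miR-192-5p comes from chromosome 19 alone and miR-215-5p from chromosome 1 alone. The array feature of each stands for 1 locus only as far as its probe keeps these miRNAs apart, which was not tested.

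The intensities are the deposited processed array values on a linear scale, in arbitrary units. Of the 610 features, 299 had a floxed-array value, 340 had an Hnf4aΔH value and 258 had both. The floxed values spanned 1.45 to 7459 with a median of 4.33 and a total of 28849, and the Hnf4aΔH values 1.02 to 8046 with a median of 3.20 and a total of 28342. Each of the 3 members had a value on both arrays, and none (0) was missing. Each stood in 1 feature, and no feature with several accessions (0) held any of them. Because the table does not pair accessions with names, the labelled tissue could not be checked against liver markers, and other features are described without names. The table held no Hnf4a mRNA, so the deletion could not be checked either. In bulk RNA, fewer cells of a type and less RNA per cell cannot be told apart.

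miR-192-5p, encoded on chromosome 19, and miR-194-5p, encoded there and on chromosome 1, were both bright in the control liver and several-fold lower in the liver-null liver. miR-215-5p was near the lowest values of both arrays and differed by less than 2-fold. Of the 3 miRNAs, 2 were thus at least 4-fold lower and 1 was not. Over all 258 shared features, 5.43% (14) lay 2-fold or more below the floxed control and 1.55% (4) lay 4-fold or more below it. On the other side, 6.59% (17) were 2-fold or more above it and 0.388% (1) 4-fold or more. The median difference was -0.06. The rule that picked the members used this contrast, so nothing is read from that comparison of shares.

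miR-194-5p, the miRNA encoded in both clusters, read 699 with floxed Hnf4a and 77.4 in Hnf4aΔH liver. The liver-null signal was 11.1% of the control signal, a 9.03-fold lower intensity. On the log2(intensity + 1) scale the levels were 9.45 and 6.29, and their difference, liver-null minus control, was -3.16. It was the lowest difference of the 258 shared features, and the feature next to it stood at -2.60. With no pseudocount miR-194-5p was at position 2, and under each of the 8 other settings of pseudocount and scaling it was at position 1.

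miR-192-5p, the Mir192 product of the chromosome 19 cluster, read 559 with floxed Hnf4a and 96.5 in Hnf4aΔH liver. The liver-null signal was 17.2% of the control signal, a 5.80-fold lower intensity. Its log2 levels were 9.13 and 6.61, with a difference of -2.52. This was the third lowest of all shared features (position 3), with neighbours in the order at -2.60 and -2.51. Under the other settings its position lay between 2 and 4. The neighbour at -2.60 went from 138 to 21.8, and the neighbour at -2.51 was a dimmer feature that went from 12.5 to 1.36. The 258 differences had their 25th and 75th percentiles at -0.33 and 0.36, so miR-192-5p and miR-194-5p both lay far below the middle of the distribution.

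miR-215-5p, the product of the chromosome 1 cluster that shares its seed with miR-192-5p, read 2.48 with floxed Hnf4a and 1.80 in Hnf4aΔH liver. Its log2 levels were 1.80 and 1.49, and the difference was -0.31, at position 69 from the lowest. Its neighbours in that order stood at -0.32 and -0.31. The value was 1.71 times the lowest value of the control array and 1.76 times the lowest of the liver-null array. Dimmer than it were 90 floxed-array features and 88 Hnf4aΔH features. The difference lay inside the middle range of the dimmest quartile of shared features by mean log2 level, whose 25th and 75th percentiles were -0.36 and -0.03 around a median of -0.23. A change in miR-215-5p could not be made out this close to the lower end of both arrays, and its absence is not shown.

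**Figure D1:**
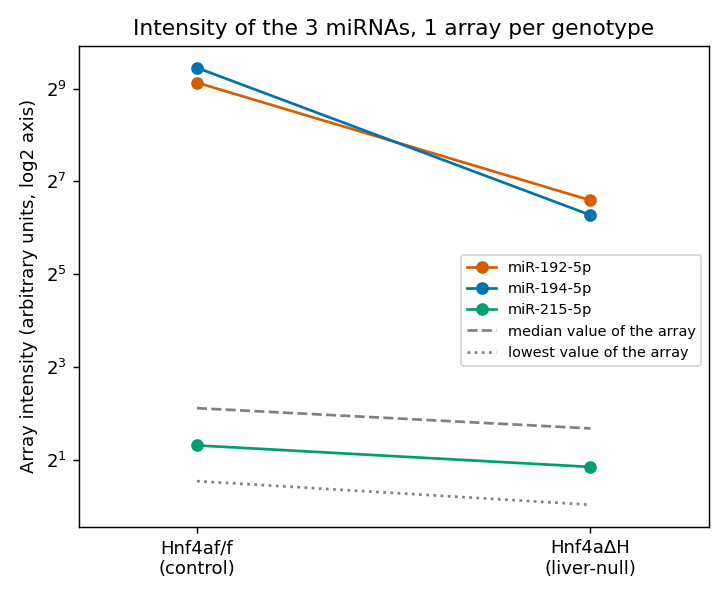
Array intensity in arbitrary units on a log2 axis for the 3 miRNAs (points joined by lines) on the control and the liver-null array, with the median (dashed) and the lowest value (dotted) of each array. miR-194-5p went from 699 to 77.4 and miR-192-5p from 559 to 96.5, while miR-215-5p, at 2.48 and 1.80, ran between the median and the lowest value of both arrays.

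The sources used here give no probe sequences, and how far the probes kept apart miR-192-5p and miR-215-5p, which differ at 3 bases, was not tested. Because probes differ in brightness for the same amount of RNA, these intensities do not rank the miRNAs by abundance.

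Both bright members left the top of the intensity order. miR-194-5p ranked 9 of 299 on the floxed array and 44 of 340 on the Hnf4aΔH array. miR-192-5p ranked 11 and 38 on the same arrays. The 20 brightest control features held these 2 miRNAs and 18 others, and all 18 others stayed within the brightest 26 of the liver-null array. The log2 differences of these 18 ran from -0.82 to 0.87 with a median of 0.00. A rank within an array does not depend on how the arrays were scaled to each other.

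**Figure D2:**
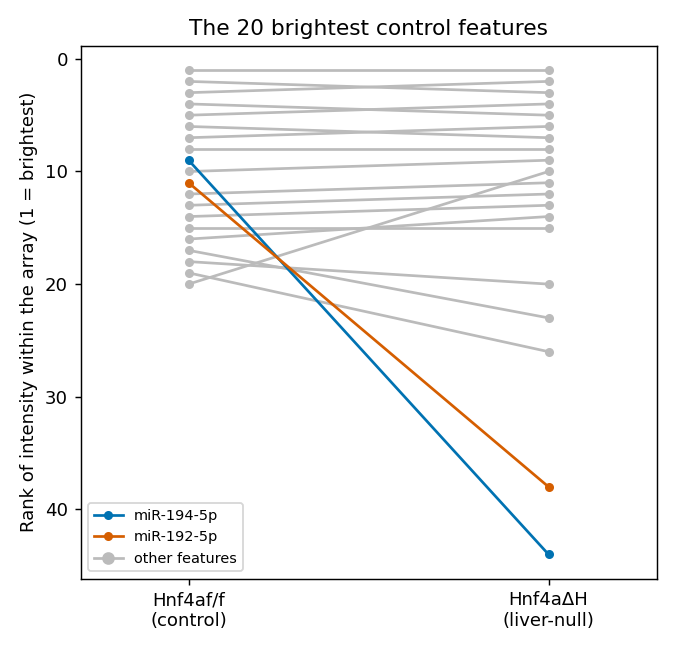
Rank of intensity within each array (1 is the brightest) for the 20 brightest features of the control array, with lines joining a feature's rank on the control and on the liver-null array. miR-194-5p goes from 9 to 44 and miR-192-5p from 11 to 38, and the 18 other features end at 26 or above in the order.

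Among the 258 shared features ranked together, miR-194-5p fell by 35 places and miR-192-5p by 27. Larger falls in rank were found for 26 and 37 features respectively, with miR-194-5p among the 37. In the brightest quartile (65 features), 1 feature fell further than miR-194-5p and 4, again with miR-194-5p among them, fell further than miR-192-5p. miR-215-5p went from place 202 to place 221 of the same 258.

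Despite the lower values, miR-192-5p and miR-194-5p were still well above most features in the liver-null liver. There miR-192-5p was at 30.1 times and miR-194-5p at 24.2 times the array's median, against 129 and 161 times in the control. Of the 340 liver-null features, 302 were dimmer than miR-192-5p and 296 dimmer than miR-194-5p. Together the pair made up 4.36% of all floxed-array signal and 0.613% of all Hnf4aΔH signal. Their summed intensity was lower by 1084, from 1258 to 174, while all other features summed to 27591 with floxed Hnf4a and 28168 without Hnf4a.

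**Figure D3:**
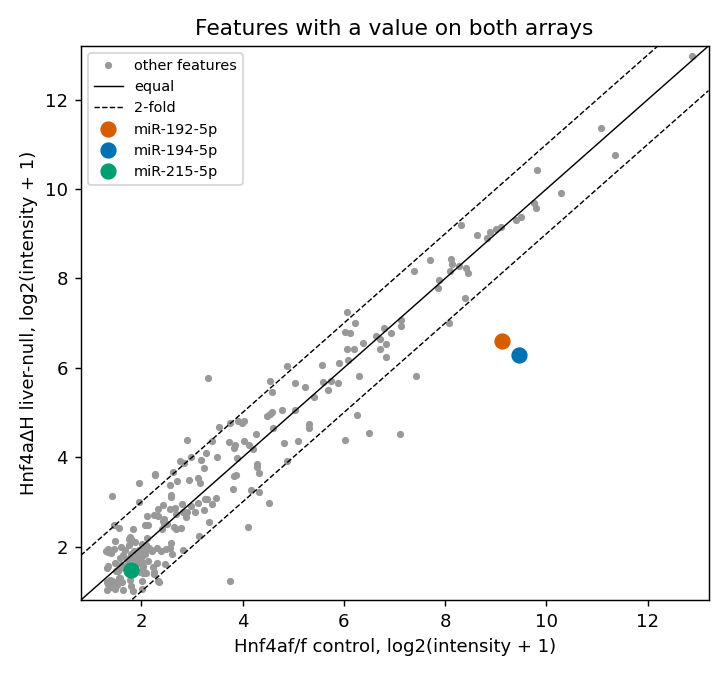
Levels as log2(intensity + 1) on the control array (horizontal) and the liver-null array (vertical) for the 258 features with a value on both, with lines for equal levels and for 2-fold differences. miR-192-5p and miR-194-5p lie together below the lower 2-fold line among the bright features, and miR-215-5p lies in the cloud of dim features.

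In the plane of the 2 arrays' values, the feature nearest to miR-192-5p was miR-194-5p, and the reverse. The rule chose both on these same arrays, where both were much lower in Hnf4aΔH liver, so their closeness follows in part from that choice and is only a description of probe signals. Likeness was measured as the Euclidean distance between features in the plane of both log2 levels, against the other 257 shared features. miR-192-5p and miR-194-5p were 0.45 apart. The next feature was 1.12 from miR-192-5p and 1.54 from miR-194-5p, and it went from 270 to 128, a difference of -1.07. The third for both went from 334 to 189, a difference of -0.82. For miR-215-5p the 3 nearest features were 0.04, 0.05 and 0.09 away, all of them dim, with control intensities between 2.33 and 2.41. Likeness over 2 arrays covers level and difference only.

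**Figure D4:**
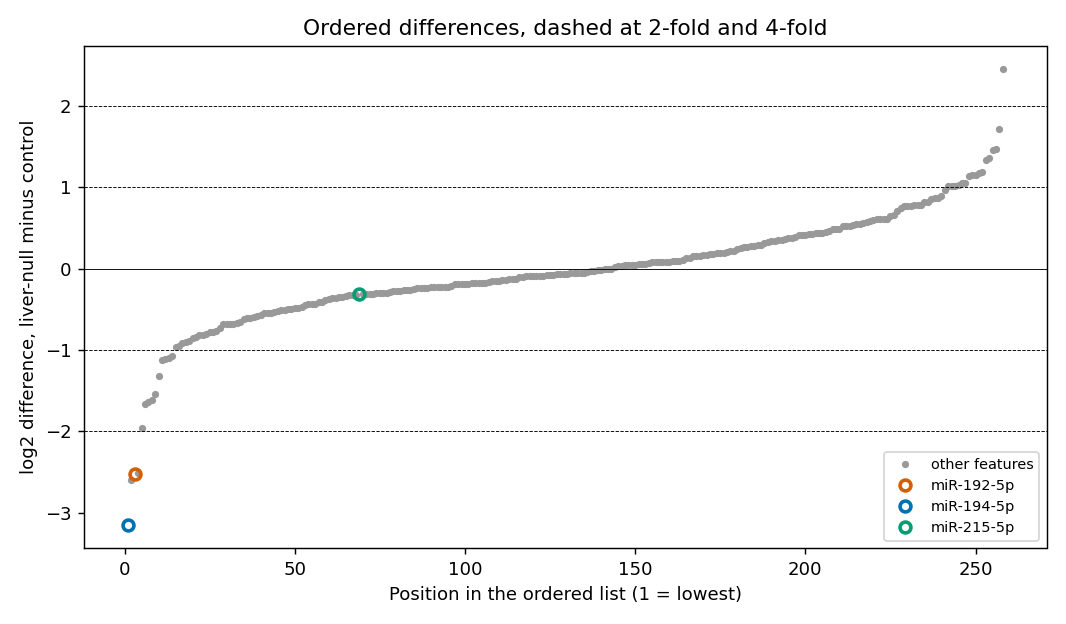
Differences in log2(intensity + 1), liver-null minus control, of the 258 shared features in order from the lowest, with dashed lines at 2-fold and 4-fold. miR-194-5p is at position 1 with -3.16, miR-192-5p at position 3 with -2.52 and miR-215-5p at position 69 with -0.31.

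The difference of miR-194-5p minus that of miR-192-5p was -0.63 on the log2 scale, a factor of 1.55. With 1 array per genotype it is not known whether this exceeds the spread between animals or hybridizations. The difference of miR-215-5p, as measured, was between 2.05 and 2.45 above that of miR-192-5p, the other miRNA with its seed, over the reported and the 9 other settings. Since a change in miR-215-5p could not be made out near the lower end of the arrays, this gap does not show that the 2 miRNAs responded differently.

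The brightest quartile of the shared features, to which miR-192-5p and miR-194-5p belong, held 8 features (12.3%) with a 2-fold or larger shortfall and 3 (4.62%) with a 4-fold or larger one. Of those 3, 2 were miR-192-5p and miR-194-5p, which were picked on this same contrast, so nothing is read from their share. The quartile's median difference was 0.04, with 25th and 75th percentiles of -0.30 and 0.28. In the dimmest quartile, to which miR-215-5p belongs, 63 of 65 features were within 2-fold and the other 2 (3.08%) were lower.

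For the bright pair, the size of each difference stayed within 1.5-fold of its reported value under every other setting. miR-194-5p ranged from -3.31 to -2.65 and miR-192-5p from -2.68 to -2.02 over 9 other settings of pseudocount and scaling, and both were at least 4-fold lower under each. Both were picked for their low values in these arrays, so the kept direction says nothing about repetition in other animals. miR-215-5p ranged from -0.47 to 0.030 and was within 2-fold under each setting.

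**Figure D5:**
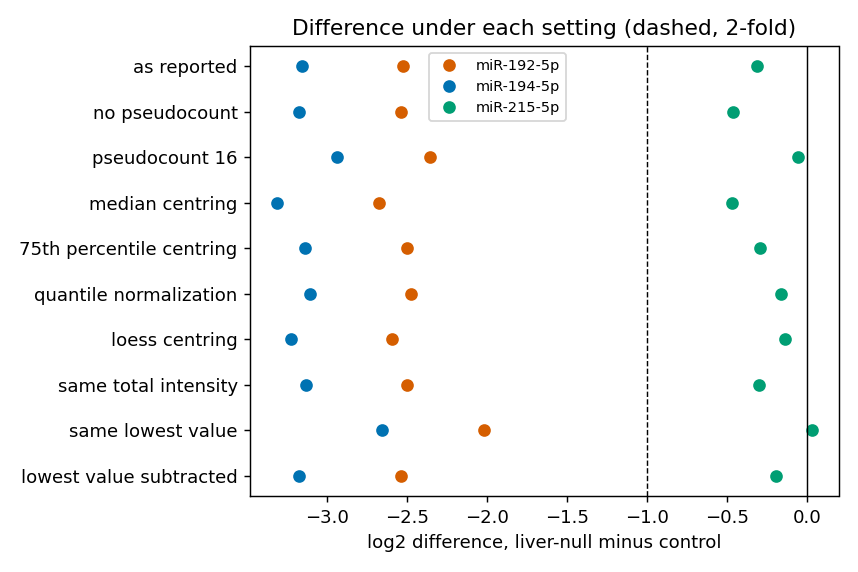
Difference in log2 intensity, liver-null minus control (horizontal), of the 3 miRNAs under the reported setting and 9 others (rows), with a solid line at 0 and a dashed line at 2-fold lower. miR-194-5p and miR-192-5p stay at -2.02 or lower, and miR-215-5p stays between -0.47 and 0.030.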

How the data were processed

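Total RNA from mouse liver was labelled with the dye Hy5 and hybridised in 1 channel per sample, per the labels' protocols. The authors deposited 1 table of processed intensity values. The sources used here do not state the array design, background correction, normalization or meaning of a missing value. Nothing was filled in for such values. Levels were taken as log2(intensity + 1), and differences as liver-null minus control over the 258 features present on both arrays, with no further scaling. Their median log2 level was 0.15 above that of the control on the liver-null array, and median centring takes this from each difference. The members and lists were chosen with earlier results of these data known. The member names come from the selection rule. The accessions of other features are not paired with names in the tables used, so the lists of cell type markers and comparison miRNAs could not be applied. The features described were the members, their neighbours in the order of differences and the 3 features most like each. Mature and hairpin sequences are from RefSeq (GRCm38.p6). The table carries no coordinates. No promoter window was searched for motifs. The counting steps were tested on simulated data with a constant added to every intensity, so that test does not cover features near the lowest values. The number of arrays limits the precision. Software comprised matplotlib 3.10.9, statsmodels 0.14.6, numpy 2.4.6, pandas 2.3.3 and Python 3.11.15.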

Additional observations from a re-analysis of the deposited data

How the results depend on the processing

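No paired analysis was possible because there was a single array for either genotype, and for the same reason no array could be left out. With no replicate spread, a value was taken as moved when it changed by more than 1.5-fold, and no member's difference did. The settings were no pseudocount, a pseudocount of 16, centring on the median or the 75th percentile, quantile normalization, loess centring (span 0.4) and scaling to the same total, with scaling to the same lowest value and subtraction of the lowest value added after seeing the data. miR-215-5p changed sign in 1 of 9 settings, to 0.030 when both arrays were scaled to the same lowest value. That scaling raised all 3 members' differences, miR-192-5p to -2.02 and miR-194-5p to -2.65, and the difference of miR-215-5p had been nearest to 0. The count of features at least 2-fold lower, 14, became 24 with no pseudocount and 7 with a pseudocount of 16. The count at least 2-fold higher, 17, became 2 with a pseudocount of 16, 9 with median centring and 10 with loess centring. At 1.5-fold 38 features were lower and 39 higher, and at 4-fold 4 were lower and 1 higher. Median centring takes 0.15 from each difference, so its count of higher features could only stay or fall. The cause of the move with loess centring was not tested. The other 11 of 20 counts stayed within 1.5 times. These include the counts over only the features at or above the median mean log2 level, 11 lower and 13 higher. Both came from fewer features, and as shares of those features they were larger.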
